A study of Mus musculus with 4 samples.

Results

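The genes described here are members of the Notch pathway and transcription factors of bile duct cells, measured in mouse liver with and without the phospholipid transporter MDR2 and the growth hormone receptor GHR. The 9 members were given by name as Jag1, Notch1, Notch2, Hes1, Hey1, Sox9, Sox4, Ehf and Spp1, and the row of each was taken where the platform annotation gave it as the single gene symbol. In this way 8 of 9 members were found among 19938 genes, each on 1 row, and Spp1 is not analysed here. The study compared 4 groups of mice labelled male, all 8 weeks old: GHR/MDR2 double knockouts (double-null), MDR2 knockout (MDR2-null), GHR knockout (GHR-null) and wildtype (wild type) livers. Per the series design, 3 livers were pooled per genotype, and each pool was hybridised to 1 Affymetrix whole-transcript array. MDR2 is the product of Abcb4, and mice without it develop cholestasis and injury around the bile ducts. The strain background, and whether the deletions were restricted to a cell type, are not stated in the labels. The question, going by the series title, concerns growth hormone resistance in fibrosis caused by cholestasis.

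Notch signalling passes between touching cells. A ligand such as Jagged 1 on one cell binds a Notch receptor on its neighbour, proteases then release the intracellular part of the receptor, and this fragment joins the DNA-binding protein RBPJ in the nucleus and switches on repressors of the Hes and Hey families. In the developing liver, Jagged 1 made by the mesenchyme of the portal tract acts on Notch2 in hepatoblasts, and this directs them to form bile ducts. Sox9 and Sox4 are transcription factors of the forming and adult ducts, Ehf is an epithelial factor of the ETS family, and Spp1 encodes osteopontin, a secreted protein of duct cells and macrophages. Sox9 and Spp1 are widely used as markers of the ductular reaction, the growth of small ducts in injured liver.

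The labels were checked against the targeted genes first. Ghr intensity was 935 in the double-null and 4485 in the MDR2-null pool, and 1395 in the GHR-null and 4944 in the wild-type pool. Abcb4 was 689 in the double-null and 663 in the MDR2-null pool, against 1346 in the GHR-null and 1120 in the wild-type pool. The labels do not state whether the probes lie in the deleted parts. Xist, an RNA of female cells, was 17 in the double-null, 18 in the MDR2-null and 16 in the wild-type pool but 1400 in the GHR-null pool, which is also labelled male and which also held Y-linked RNA. The Y-linked Eif2s3y was 680 in the GHR-null and 899 in the wild-type pool, Uty was 308 in the GHR-null and 361 in the wild-type pool, and Kdm5d was 259 in the GHR-null and 268 in the wild-type pool. Every value below that rests on the GHR-null pool carries this departure from its label, and the comparison of the double-null with the MDR2-null pool and those with wild type that leave it out do not use it. Hepatocyte markers were high in all pools, and the lowest of them was at an intensity of 1098.

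Each value is the intensity deposited by the authors on a linear scale, and differences are given as log2 or as a fold between single pools. There is no replicate array, so a pairwise difference has no error of its own and no p-value. As a guide to size, the difference between 2 pools had a robust spread of 0.20 on the log2 scale (1.15-fold) for a typical gene. It was derived over all genes from the non-additivity, that is, the difference with GHR loss in mice without MDR2 minus the difference with GHR loss in mice with MDR2. A difference of at least 1.5-fold was counted as higher or lower. In bulk liver RNA, more cells of a type and more RNA per cell cannot be told apart. Intensities near or under 100, the median of all rows with 1 symbol, were not shown to be above background, which touches Ehf, Sox4 and Hey1 in most pools and Jag1 in the pools with MDR2 intact, so their folds are approximate.

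Upstream sequence was found for 4 of the measured members in the RefSeq promoter table (assembly GRCm38.p6). All 4 are shown because they were the ones found, not for their values. Sox4 and Jag1 were at least 1.5-fold higher with GHR loss in livers without MDR2, while the receptors Notch1 and Notch2 were not. Each line gives the 250 bases before the gene's start, 5′ to 3′ on the gene's strand. The positions are chr13:28953700-28953949 (minus strand) for Sox4, chr2:137116521-137116770 (minus strand) for Jag1, chr2:26503823-26504072 (minus strand) for Notch1 and chr3:98013288-98013537 (plus strand) for Notch2. Capitals mark matches, on either strand, to the motif of RBPJ (TGGGAA), of the TEAD partners of YAP (CATTCC) or of STAT5, which carries the growth hormone signal (TTCNNNGAA).
Sox4: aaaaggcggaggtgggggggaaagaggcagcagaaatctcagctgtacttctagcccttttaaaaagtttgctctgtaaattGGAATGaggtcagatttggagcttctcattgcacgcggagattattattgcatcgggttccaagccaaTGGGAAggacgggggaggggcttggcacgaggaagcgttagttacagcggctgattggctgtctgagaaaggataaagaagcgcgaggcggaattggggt
Jag1: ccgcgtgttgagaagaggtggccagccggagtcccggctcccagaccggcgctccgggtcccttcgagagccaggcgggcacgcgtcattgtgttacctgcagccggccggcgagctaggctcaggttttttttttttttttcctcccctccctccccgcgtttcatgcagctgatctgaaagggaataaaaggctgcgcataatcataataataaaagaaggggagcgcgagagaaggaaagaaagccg
Notch1: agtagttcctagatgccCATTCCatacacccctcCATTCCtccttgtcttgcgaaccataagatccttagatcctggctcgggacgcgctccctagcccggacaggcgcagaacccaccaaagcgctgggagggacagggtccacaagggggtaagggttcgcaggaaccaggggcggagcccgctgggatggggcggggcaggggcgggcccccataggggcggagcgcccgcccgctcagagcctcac
Notch2: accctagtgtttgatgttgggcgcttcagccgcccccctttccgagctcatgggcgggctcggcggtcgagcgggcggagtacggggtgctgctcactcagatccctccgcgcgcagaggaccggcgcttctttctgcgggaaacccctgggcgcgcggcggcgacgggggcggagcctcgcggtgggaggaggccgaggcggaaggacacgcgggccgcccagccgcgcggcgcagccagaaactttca
The Sox4 stretch held 1 RBPJ match, starting 100 bases before the start, and 1 TEAD match starting 168 bases before it. The Notch1 stretch held 2 TEAD matches, starting 233 and 216 bases before the start. No capitals stand in the Jag1 and Notch2 stretches, and no STAT5 match was present in any of the 4. Among all 32851 promoter entries of the same length, 21.59% held the RBPJ letters, 12.64% the TEAD letters and 7.02% the STAT5 letters. The 3 motifs do not overlap in these stretches. A match is a description of the letters and not a site of binding.

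**Figure D1:**
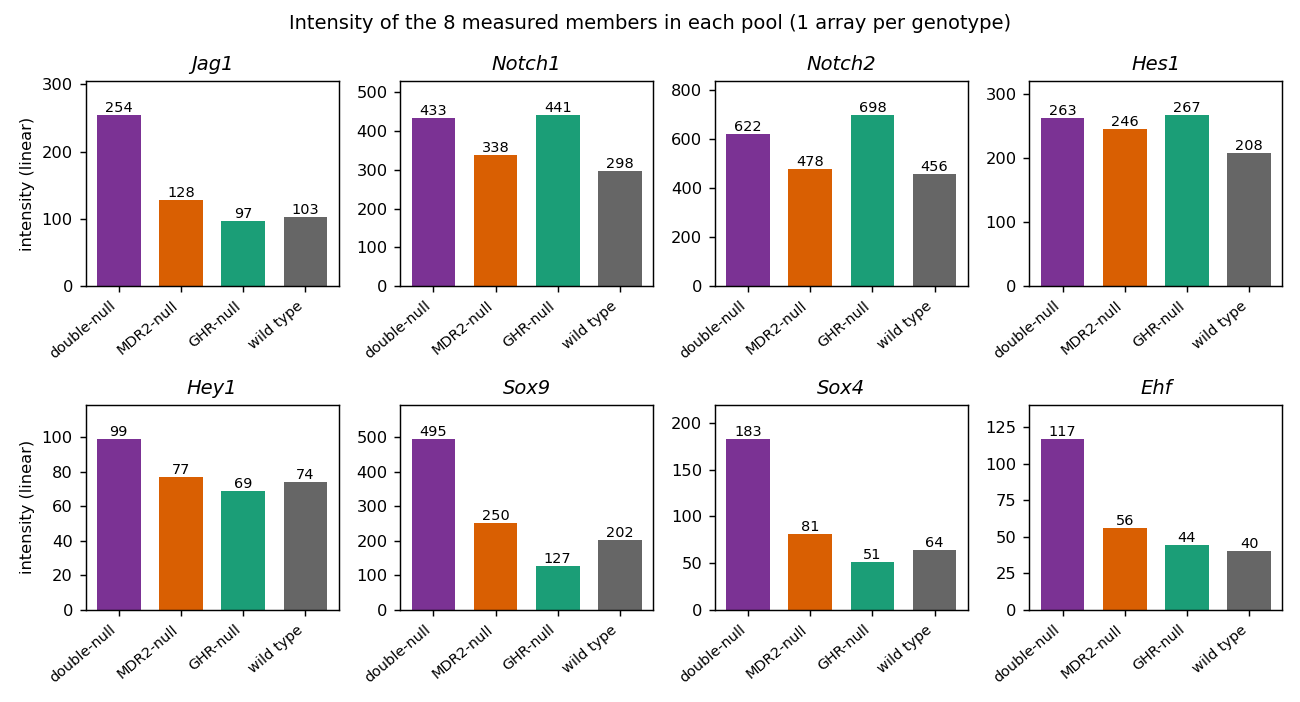
Bars give the linear intensity of each measured member in the double-null, MDR2-null, GHR-null and wild-type pools (1 array each, no error bars), each panel on its own axis from 0. Jag1, Sox9, Sox4 and Ehf stood highest in the double-null pool, at 254, 495, 183 and 117, while Notch2 stood highest in the GHR-null pool, at 698, and Notch1 was close in the double-null and GHR-null pools, at 433 and 441.

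With MDR2 already lost, the further loss of GHR went with higher levels of the ligand Jag1 and of the transcription factors Sox9, Sox4 and Ehf, and with small differences in the receptors and in the target repressors. Jag1, the Notch ligand of the portal tract, was 254 in the double-null and 128 in the MDR2-null pool, 1.98-fold higher. Sox9, which marks duct cells and the hepatocytes next to them, was 495 in the double-null and 250 in the MDR2-null pool, also 1.98-fold higher. These 4 genes lay between 1.98-fold and 2.26-fold, within 1 spread of each other.

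Sox4, which acts with Sox9 in building the ducts, was 183 in the double-null and 81 in the MDR2-null pool, 2.26-fold higher. Ehf was 117 in the double-null and 56 in the MDR2-null pool, 2.09-fold higher, with the MDR2-null value under the median intensity. The receptors differed less: Notch1 was 433 in the double-null and 338 in the MDR2-null pool (1.28-fold). Notch2, the receptor of duct formation, was 622 in the double-null and 478 in the MDR2-null pool (1.30-fold). Both receptors differed by under 2 spreads of a typical gene. The direct target Hes1 was 263 in the double-null and 246 in the MDR2-null pool, a log2 difference of 0.10 that lies inside the spread. Hey1, a related target, was 99 in the double-null and 77 in the MDR2-null pool, a log2 difference of 0.36.

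In the double-null pool, set against the MDR2-null pool, 4 of 8 measured members passed 1.5-fold upward and 0 downward, beside 4.48% of all genes upward and 2.31% downward. The median of the members was 0.68 and that of all genes 0. With a threshold of 2-fold, Sox4 and Ehf remained above it, while Jag1 and Sox9 at 1.98-fold fell just short. This comparison does not use the GHR-null pool. The members and lists were chosen with earlier results of these data known. The shares of all genes, here and below, therefore give a scale and do not test for an excess.

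With loss of MDR2 alone none of the 8 measured members reached 1.5-fold. All 8 were above 0 on the deposited scale, beside 9999 of 19938 genes. Hey1, however, turned to -0.03 with cyclic loess and to -0.0006 with hepatocyte centring. Ehf came nearest, at 56 in the MDR2-null and 40 in the wild-type pool (1.40-fold). Sox4 was 81 in MDR2-null and 64 in wild-type livers (1.27-fold). Sox9 was 250 in MDR2-null and 202 in wild-type livers (1.24-fold). Jag1 was 128 in MDR2-null and 103 in wild-type livers (1.24-fold). These 4 differences lie between 1 and 3 spreads of a typical gene.

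Hes1 was 246 in MDR2-null and 208 in wild-type livers, a log2 difference of 0.24. Notch1 was 338 in MDR2-null and 298 in wild-type livers (0.18), Notch2 was 478 in MDR2-null and 456 in wild-type livers (0.07), and Hey1 was 77 in MDR2-null and 74 in wild-type livers (0.06). The last 3 lay inside the spread. Over all genes, 4.11% passed 1.5-fold upward and 2.03% downward, with a median of 0.00, and the members' median was 0.27.

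The MDR2-null pool is the numerator here and the denominator in the comparison above, so these differences are not independent of each other. The members' counts were 4 of 8 in the double-null pool over MDR2-null livers and 0 of 8 in the MDR2-null pool over wild type. Among 18 measured markers of cholangiocytes, the cells that line the ducts, 12 passed 1.5-fold upward in the first of these (median 0.90). In the other, 14 passed it (median 0.82). The shares of all genes were 4.48% and 4.11%. The summed intensity of the markers was 8032 in the double-null, 4416 in the MDR2-null, 2881 in the GHR-null and 2559 in the wild-type pool. Cd24a, Anxa4 and Cdh1 made up much of the double-null sum, at 1722, 1393 and 1256. Anxa4 and Cdh1 made up much of the wild-type sum, at 785 and 586. In the double-null pool 2 of these 18 markers were under an intensity of 100, against 4 in the MDR2-null, 11 in the GHR-null and 13 in the wild-type pool. No test of the difference between the marker list and the members was made, and the part of duct cell number in the members' values was not tested.

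Without MDR2 loss, GHR loss went with higher receptors and lower Sox9. The receptors were also higher with GHR loss in livers without MDR2, with log2 differences of 0.36 for Notch1 and 0.38 for Notch2, whereas Sox9 was not lower there. Notch2 was 698 in the GHR-null and 456 in the wild-type pool, 1.53-fold higher. Notch1 was 441 in the GHR-null and 298 in the wild-type pool, a log2 difference of 0.57 that is just under the threshold. Hes1 was 267 in the GHR-null and 208 in the wild-type pool, 1.28-fold higher. All 3 lay beyond 1 spread of a typical gene, and the receptors beyond 2.

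Sox9 was 127 in the GHR-null and 202 in the wild-type pool, 1.59-fold lower. Sox4 was 51 in the GHR-null and 64 in the wild-type pool, 1.25-fold lower, at intensities under the median. The other members stayed inside the spread: Jag1 was 97 in the GHR-null and 103 in the wild-type pool, Hey1 was 69 in the GHR-null and 74 in the wild-type pool, and Ehf was 44 in the GHR-null and 40 in the wild-type pool. With 1 of 8 members at least 1.5-fold higher and 1 of 8 lower, against 2.58% and 1.67% of all genes, the members' median was 0.03 and that of all genes 0.05. Notch2 was below 1.5-fold with cyclic loess, median centring and hepatocyte centring, and Sox9 remained lower by at least 1.5-fold under each of these. Among the 18 cholangiocyte markers, 10 were above 0, with a median of 0.09. Krt23 (222 in GHR-null, 38 in wild type) and Prom1 (110 and 39) passed 1.5-fold upward, and Cdh1 (385 and 586) passed it downward. Of these markers, 11 in the GHR-null and 13 in the wild-type pool were under 100. Their bearing on Sox9 was not tested.

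These values come from the pool with Xist at 1400. In the same comparison all 15 endothelial markers were above 0 on the deposited scale, beside 11120 of 19938 genes. Median centring shifts this comparison by -0.12, which exceeds the values of Lyve1 (0.01), Tie1 (0.05) and Sox18 (0.08). The 15 markers had a median of 0.26, against 0.05 for all genes, and 0 of 15 were past 1.5-fold. Their summed intensity was 8579 in the GHR-null and 6951 in the wild-type pool. Over the 4 pools it was 6969 in the double-null, 7386 in the MDR2-null, 8579 in the GHR-null and 6951 in the wild-type pool. Macrophage markers had a larger median, 0.46, with 17 of 20 above 0 and 2 past 1.5-fold upward. Lymphocyte markers had a median of 0.43, with 8 of 9 above 0 and 3 past 1.5-fold upward. Those 3 were Cd3e (174 in GHR-null, 94 in wild type), Cd79a (33 and 20) and Ms4a1 (39 and 23). Of the 9 lymphocyte markers, 7 in the GHR-null and 9 in the wild-type pool were under 100 and not shown to be above background. Stellate cell markers had a median of 0.25, with 1 of 16 past 1.5-fold upward. The share of all genes past 1.5-fold upward was 2.58%. Notch1 and Notch2 are used by several of these cell types, and the part of these cells in their values was not tested.

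**Figure D2:**
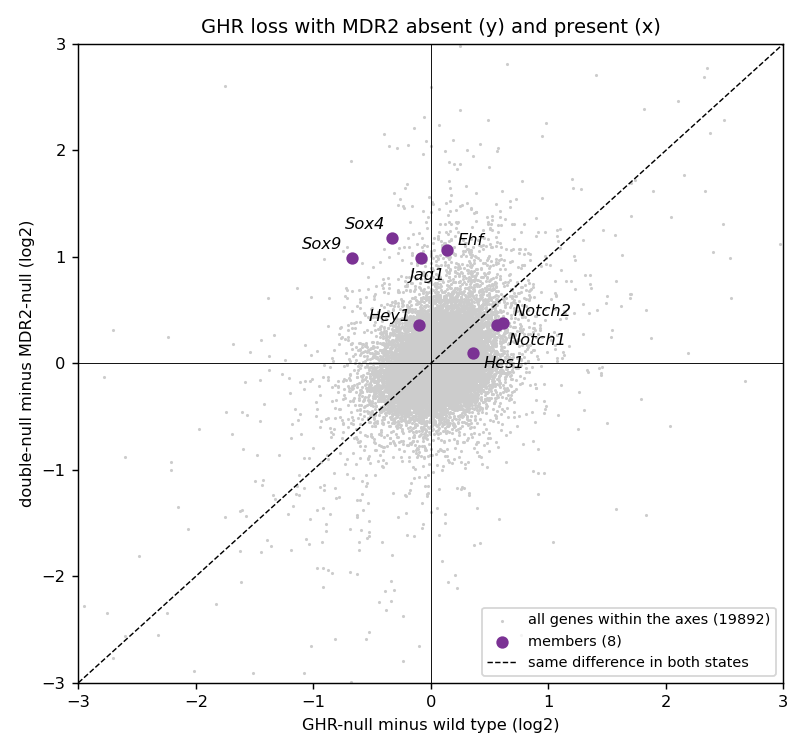
Each point is a gene, placed by its log2 difference with GHR loss in mice with MDR2 (GHR-null minus wild type, x) and without it (double-null minus MDR2-null, y). Sox9, Sox4, Jag1 and Ehf lie well above the dashed line of equal differences, with Sox9 at -0.67 and 0.99, whereas Notch1, Notch2 and Hes1 lie a little below it.

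For the ligand and the duct factors, the difference with GHR loss was not the same with and without MDR2 in these pools. The non-additivity was 1.66 for Sox9, 1.503 for Sox4, 1.08 for Jag1 and 0.93 for Ehf on the log2 scale, while its robust SD over all genes was 0.28. For Sox9 and Sox4 the direction itself differed, lower with GHR loss when MDR2 was present and higher when it was absent. Hey1 had a value of 0.46. The receptors and Hes1 were slightly below 0, with -0.21 for Notch1, -0.23 for Notch2 and -0.26 for Hes1, each inside the robust SD. Counted at 1.5-fold, 4 of 8 members lay above 0 and 0 below, against 3.75% of all genes above. The non-additivity uses the GHR-null pool, which carries Xist. It uses up all 4 arrays, so it has no test.

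Against wild type, the double-null pool had all 8 measured members higher in value, beside 9173 of 19938 genes, and the same 4 were past 1.5-fold. Ehf was 117 in the double-null and 40 in the wild-type pool (2.93-fold), and Sox4 was 183 in double-null and 64 in wild-type livers (2.86-fold). Jag1 was 254 in double-null and 103 in wild-type livers (2.47-fold), and Sox9 was 495 in double-null and 202 in wild-type livers (2.45-fold). Notch1 followed at 433 in the double-null and 298 in the wild-type pool (1.45-fold), and Notch2 at 622 in the double-null and 456 in the wild-type pool (1.36-fold). Hey1 and Hes1 were 1.34-fold and 1.26-fold higher. Of all genes 8.7% passed 1.5-fold upward and 4.42% downward, with a median of 0, and the members had 4 of 8 higher, 0 lower and a median of 0.92.

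Between the double-null and the GHR-null pool, which both lack the receptor, Sox9 gave the widest gap of any member, at 495 in the double-null and 127 in the GHR-null pool (3.90-fold). Sox4 was 3.59-fold, Ehf 2.66-fold and Jag1 2.62-fold higher in the double-null pool. Hey1 was 99 in the double-null and 69 in the GHR-null pool (1.43-fold). Notch1, Hes1 and Notch2 were within the spread, with log2 differences of -0.03, -0.02 and -0.17. Again 4 of 8 members passed 1.5-fold upward (5 with median centring, which adds Hey1) and 0 downward, against 6.51% and 5.71% of all genes, and the members' median was 0.95 against -0.02 for all genes. All these comparisons reuse the same 4 arrays, so their counts do not add up as separate evidence.

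The order of the pools was double-null, MDR2-null, wild type and GHR-null from high to low for Jag1, Hey1, Sox9 and Sox4. Ehf had the same order except that the GHR-null pool stood above wild type. For Notch1, Notch2 and Hes1 the order was GHR-null, double-null, MDR2-null and wild type on the deposited scale. The double-null pool came above the GHR-null pool for Notch1 and Hes1 with cyclic loess (0.07 and 0.05) and with median centring (0.04 and 0.04), so their place at the top is not settled. Taking 2 spreads (1.32-fold) as the mark, the step between the double-null and the MDR2-null pool exceeded it for Jag1, Sox9, Sox4 and Ehf, and the step between wild type and GHR-null exceeded it for Sox9. No other neighbours in these orders differed by that much, and for Notch1, Notch2, Hes1 and Hey1 none did.

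The test that uses all arrays was limma with MDR2 and GHR status as additive factors, which estimates 1 effect of each loss averaged over both states of the other gene. With 1 residual degree of freedom per gene it is weak. A gene whose values depart from additivity, as those of Sox9 did in these pools, gets a larger error. Whether that departure is more than noise was not tested. For loss of MDR2 the log2 effect was 1.14 ± 0.53 for Sox9, 1.09 ± 0.48 for Sox4, 0.95 ± 0.30 for Ehf and 0.85 ± 0.35 for Jag1 (SE, limma over all genes, 4 arrays). For loss of GHR it was 0.50 ± 0.11 for Notch2 and 0.46 ± 0.11 for Notch1. No member passed limma's adjusted p of 0.05 over all genes: the adjusted p was at least 0.35 for loss of MDR2 and at least 0.535 for loss of GHR. This fit called 0% of all genes for MDR2 and 0% for GHR, with 2898 and 1718 genes at an unadjusted p under 0.05, and on simulated data it found none of the genes that had been changed. The table's rounding to whole numbers left 428 genes with a residual of exactly 0, and limma's prior degrees of freedom were 1.53.

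With the level filter, which kept 9969 genes and 5 of the 8 members (not Hey1, Sox4 and Ehf), limma called 5.21% of genes for MDR2 and 0.692% for GHR. No member was among them. The lowest adjusted p of a member was 0.123 for MDR2 (Jag1) and 0.247 for GHR (Notch2) in that limma fit. Leaving out the genes with a residual of 0, an alternative chosen after seeing the data, gave 6.63% of genes called by limma for MDR2 and 1.34% for GHR. In this limma fit Ehf (adjusted p = 0.0208) and Sox4 (adjusted p = 0.0460) passed for loss of MDR2, Jag1 (0.0535) and Sox9 (0.0567) lay just above the threshold, and no member passed for loss of GHR, the lowest adjusted p being 0.206. Over all limma settings in which it was tested, the adjusted p for loss of MDR2 lay between 0.0208 and 0.360 for Ehf and between 0.0460 and 0.413 for Sox4. With cyclic loess, which left 1 residual at 0, and hepatocyte centring, which left 0, neither passed. With median centring, which also left 0, Ehf passed (limma adjusted p = 0.0409) and Sox4 did not (0.0822).

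The other genes of the Notch pathway differed little. Of 37 further measured genes for ligands, receptors, sugar-transferring modifiers, proteases, trafficking factors, nuclear partners and targets, 2 passed 1.5-fold upward and 0 downward between the double-null pool and MDR2-null livers, a share near that of all genes, with a median of 0.16. These were Aph1b, a subunit of the gamma-secretase that cuts the receptor, at 237 in the double-null and 144 in the MDR2-null pool (1.65-fold), and Dtx3, of the Deltex family of ubiquitin ligases, at 104 in the double-null and 68 in the MDR2-null pool (1.53-fold). Rbpj, the DNA-binding partner, was 392 in the double-null and 269 in the MDR2-null pool (1.46-fold). Adam10, the protease that makes the first activating cut, was 788 in the double-null and 593 in the MDR2-null pool (1.33-fold).

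Of these 37 genes 0 were 1.5-fold apart between MDR2-null and wild type (median 0.07) and 0 between GHR-null and wild type (median 0.09, but -0.03 with median centring). Of all genes, 4.11% and 2.58% passed upward and 2.03% and 1.67% downward in these comparisons. Between double-null and wild type 4 of 37 were higher, near the 8.7% of all genes, and 0 lower (median 0.16), with Dtx3 at 1.86-fold and Adam10 at 1.74-fold. Between the double-null and the GHR-null pool 4 of 37 were higher and 0 lower (median 0.02), beside 6.51% and 5.71% of all genes. Among the ligands, Jag2 was 85 in the double-null, 88 in the MDR2-null, 55 in the GHR-null and 61 in the wild-type pool, so that it was level between the pools without MDR2 while Jag1 was not. Dll4, a ligand of endothelial cells, was 108 in the double-null, 117 in the MDR2-null, 142 in the GHR-null and 118 in the wild-type pool.

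The other receptors did not follow Notch1 and Notch2 closely. Notch3 was 108 in the double-null, 125 in the MDR2-null, 109 in the GHR-null and 104 in the wild-type pool. Notch4 was 91 in the double-null, 112 in the MDR2-null, 120 in the GHR-null and 102 in the wild-type pool. Of 6 target repressors and feedback genes including Hes1 and Hey1, 0 were 1.5-fold apart in any of the 5 comparisons. Over these comparisons 2.58% to 8.7% of all genes passed upward and 1.67% to 5.71% downward, so 0 of 6 is near that share. Hey1, Hey2 (24 to 33) and Nrarp (39 to 46) were under 100 in every pool and not shown to be above background. Hes5 was 117 in the double-null, 140 in the MDR2-null, 105 in the GHR-null and 147 in the wild-type pool, near the median intensity throughout. Hes6, a relative of Hes1 that opposes it in nerve cell development, was lower, at 307 in the double-null, 747 in the MDR2-null, 496 in the GHR-null and 766 in the wild-type pool.

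Other transcription factors of duct cells showed several patterns. Of 8 measured beside the members, 1 passed 1.5-fold upward and 1 downward between the double-null pool and MDR2-null livers, with a median of -0.06. Of all genes, 4.48% passed upward and 2.31% downward. Glis3, mutated in a human syndrome of neonatal diabetes with kidney cysts, was 253 in the double-null and 124 in the MDR2-null pool (2.04-fold higher), and 97 in the GHR-null and 77 in the wild-type pool, close to the pattern of Ehf. Elf3, an epithelial ETS factor related to Ehf, was 162 in the double-null and 184 in the MDR2-null pool, and 45 in the GHR-null and 51 in the wild-type pool. Elf3 was thus 3.61-fold higher in the MDR2-null than in the wild-type pool with GHR present and lay within the spread between double-null and MDR2-null, where Ehf was 2.09-fold higher. The non-additivity was -0.00 for Elf3 and 0.93 for Ehf.

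Onecut1, a factor that acts upstream of duct formation and is also a growth hormone target in liver, was 218 in the double-null, 436 in the MDR2-null, 248 in the GHR-null and 1150 in the wild-type pool. It was lower in each pool lacking either gene, whereas Sox9 was lower in the GHR-null pool only. Klf5 was 178 in the double-null, 139 in the MDR2-null, 109 in the GHR-null and 105 in the wild-type pool. Foxa2, a factor of liver and duct formation, was 168 in the double-null, 169 in the MDR2-null, 268 in the GHR-null and 206 in the wild-type pool, so that its double-null level was 1.60-fold below that of GHR-null livers. Foxa1 and Onecut2 stayed within the spread in all 5 comparisons. Of 10 other Sox genes, 0 were 1.5-fold apart between the double-null pool and MDR2-null livers and 0 between MDR2-null and wild type. The shares of all genes were 4.48% and 4.11% upward and 2.31% and 2.03% downward. Between the double-null and the GHR-null pool Sox5 and Sox6 were 1.55-fold and 1.81-fold lower.

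Spp1 itself is not analysed here, but 10 genes of the receptors that bind osteopontin were measured. Of these, 3 passed 1.5-fold upward between double-null and MDR2-null and 3 between MDR2-null and wild type, beside 4.48% and 4.11% of all genes, with medians of 0.38 and 0.39. Cd44, a receptor of osteopontin and hyaluronan on leukocytes and duct cells, was 488 in the double-null, 229 in the MDR2-null, 112 in the GHR-null and 74 in the wild-type pool. Itga4 was 277 in the double-null, 185 in the MDR2-null, 125 in the GHR-null and 90 in the wild-type pool. Cd44 passed 1.5-fold in both comparisons, while Itga4 passed between MDR2-null and wild type (2.06-fold) and fell just short between double-null and MDR2-null. The others that passed were Itga8 (1.75-fold) and Itgb3 (1.51-fold) between double-null and MDR2-null, and Itgav (1.57-fold) between MDR2-null and wild type. The summed intensity of 20 macrophage markers was 19384 in the double-null, 14543 in the MDR2-null, 9682 in the GHR-null and 6972 in the wild-type pool. Lyz2 made up much of the sum, at 5243 in the double-null, 2879 in the MDR2-null, 977 in the GHR-null and 847 in the wild-type pool. The Kupffer cell marker Clec4f had another order, at 628 in the double-null, 885 in the MDR2-null, 993 in the GHR-null and 677 in the wild-type pool. Between double-null and MDR2-null, 16 of the 20 markers were above 0, beside 8842 of 19938 genes. The part of these cells in the receptors' values was not tested.

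**Figure D3:**
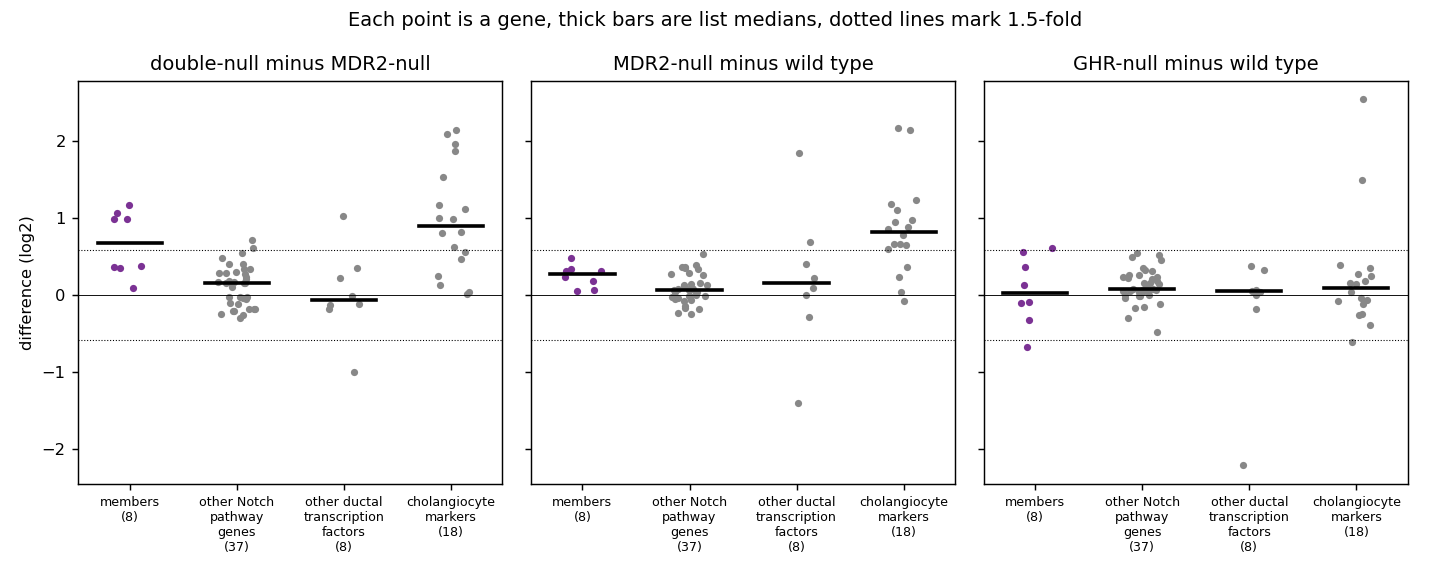
Points give the log2 difference of each gene in 3 comparisons for the 8 members, 37 other Notch pathway genes, 8 other ductal transcription factors and 18 cholangiocyte markers. Thick bars are medians and dotted lines mark 1.5-fold; the members' median was 0.68 between double-null and MDR2-null, 0.27 between MDR2-null and wild type and 0.03 between GHR-null and wild type.

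Markers of other cell types were read between the double-null pool and MDR2-null livers, which share MDR2 loss. Of 20 macrophage markers 7 passed 1.5-fold upward (median 0.42), and of 16 stellate cell markers 4 passed it upward and 2 downward (median 0.16). The shares of all genes were 4.48% upward and 2.31% downward. The stellate cell markers summed to 14128 in the double-null and 10804 in the MDR2-null pool, with Dcn alone at 6466 and 4928. Endothelial markers were apart in 0 of 15 (median -0.10), lymphocyte markers in 0 of 9 and neutrophil markers in 0 of 7. The lymphocyte list, relevant to Sox4, which these cells also use, summed to 416 in the double-null and 459 in the MDR2-null pool, with 8 of 9 markers under 100 in each. These low values were not shown to be above background. The part of macrophages, stellate cells and lymphocytes in the members' values was not tested.

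The genes whose values ran closest to a member were found by distance over the log2 differences of the double-null, MDR2-null and GHR-null pools from wild type, among genes at or above the median level. A distance of 0 means the same differences in all 3 pools, and nothing about shared control follows from it. Nearest to Jag1 were Fndc10 (distance 0.06), Acsl4 (0.08), which activates arachidonic acid, and the leukotriene receptor gene Cysltr1 (0.17). Acsl4 was 2273 in the double-null, 1209 in the MDR2-null, 936 in the GHR-null and 967 in the wild-type pool. Nearest to Ehf were Tnfaip8 (0.12), Rassf2 (0.15) and the laminin chain gene Lama5 (0.16).

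Ajuba, a scaffold protein that inhibits the Hippo kinases, was the nearest to Sox9 (0.30) and among the nearest 3 to Sox4 (0.30), at 250 in the double-null, 144 in the MDR2-null, 79 in the GHR-null and 105 in the wild-type pool. Armcx4 (0.33) and Tuft1 (0.36) followed for Sox9. For Sox4 the nearest were Smoc2 (0.19), a matricellular gene, and the chemokine Cx3cl1 (0.29). The chemokine was 232 in the double-null, 121 in the MDR2-null, 72 in the GHR-null and 81 in the wild-type pool. Nearest to Notch2 were Pxdn (0.06), which crosslinks collagen IV, the sulfotransferase Sult1d1 (0.09) and the kinase Hipk3 (0.09).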

How the data were processed

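Total RNA of livers pooled by genotype was measured on 4 arrays, 1 per genotype, so no p-value measures a spread between like arrays. Limma's p-values rest on each gene's departure from additivity, its 1 residual degree of freedom, together with limma's prior over the genes fitted. Per the submitters' processing notes, the deposited intensity values came from RMA in Affymetrix Expression Console 1.1; RMA output is usually log2, and the deposited numbers were whole and linear, between 6 and 22355. No detection calls were used; precision is limited by having 4 arrays.

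Of 35556 rows, 21789 had 1 symbol, 1621 several and 12146 none; only the first were used. A gene with several rows (999 of 19938) took the row with the highest mean. All 8 measured members have 1 row. By gene identifier 21698 rows matched the RefSeq table (GRCm38.p6), and no symbol changed. Log2 was taken of the authors' intensity, their normalization was kept, and 5 pairwise differences and the non-additivity were computed (Python 3.11.15). Limma 3.58.1 (R 4.3.3; lmFit, eBayes with trend) was fitted with additive MDR2 and GHR terms, with Benjamini-Hochberg adjustment. Tested on simulated data for the MDR2 effect, the fit over 19938 genes found 0% of the 2-fold and 0% of the 4-fold changes put in; with the level filter (9969 genes) it found 100% of both, with 5 false calls, and with zero residuals left out (19555 genes) 100% of both, with 7 false calls. The simulated errors were equal within a level class, and the effects put in were additive. Limma's prior degrees of freedom were infinite in both simulated fits that found the changes, against 4.97 in the real fit with the level filter. Real recovery may thus be lower, and recovery of genes whose values depart from additivity, as those of Sox9 did, was not simulated. The fit over all genes is therefore given with both others. Genes were named as members, targeted and sex-linked genes, up to 4 genes with the largest differences per list and comparison, and the 3 nearest genes of each member at least 1.5-fold apart; Klf5, Foxa1 and Onecut2 were added after their values were seen. Alternatives were a 2-fold threshold, a level filter (geometric mean intensity of at least 99.2), cyclic loess, median and hepatocyte centring, mean rows, and limma without trend or robust. Members and lists were chosen with earlier results of these data known. Some listed genes and markers are not analysed here.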

Additional observations from a re-analysis of the deposited data

Results flagged for a closer look

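For Sox9, loss of GHR went with a lower value when MDR2 was present (log2 -0.67, GHR-null minus wild type) and a higher value when it was absent (0.99, double-null minus MDR2-null), a difference between the states of 1.66 on the log2 scale (1.655 before rounding). Sox4 also moved in opposite directions, at 1.18 without MDR2 and -0.33 with it, a difference of 1.503. Each of the 4 differences exceeded the spread of a typical gene (0.20). The differences between the states were not tested, since there is 1 array per genotype, and the GHR-null pool that enters them carries Xist at 1400. No group held enough arrays for a search for outlying samples.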

How the results depend on the processing

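Member differences were recomputed under cyclic loess, median centring, hepatocyte centring, mean rows and, for the 5 members it keeps, the level filter (185 values). Mean rows and the level filter could not change them, since each member has 1 row. Each centring moves all genes of a comparison by the same amount, which was under the spread of a typical gene. Only the 40 values with cyclic loess could therefore have moved by a spread or more. All 185 changed by less than the spread, and no difference past 1.5-fold changed sign. Of the smaller ones, Hey1 in MDR2-null over wild type turned to -0.03 with cyclic loess and -0.0006 with hepatocyte centring. In double-null over GHR-null, Notch1 turned to 0.07 and 0.04 and Hes1 to 0.05 and 0.04 with cyclic loess and median centring. Centring on the median shifted all genes' median by -0.12 in the GHR-null against the wild-type pool, the only shift over 0.1. Members at least 1.5-fold higher numbered 4 in the double-null over the MDR2-null pool but 2 with a 2-fold threshold; the level filter, which drops Hey1, Sox4 and Ehf, left 2 in this comparison, in double-null over GHR-null and in double-null over wild type. Median centring gave 5 in double-null over GHR-null, adding Hey1. In GHR-null over wild type, the 1 higher member (Notch2) became 0 with a 2-fold threshold, cyclic loess, median centring and hepatocyte centring, and the 1 lower member (Sox9) became 0 with a 2-fold threshold. The limma calls moved with the filter, the scaling and the rounding ties: 0 genes were called over all genes as deposited, without trend, with robust settings and with mean rows. For MDR2 the genes called higher and lower were 374 and 145 with the level filter, 300 and 62 with cyclic loess, 823 and 209 with median centring, 378 and 141 with hepatocyte centring, and 882 and 411 with zero residuals left out. For GHR they were 26 and 43, 22 and 40, 41 and 97, 26 and 50, and 139 and 122 in the same order. Among the members only Ehf passed with median centring (limma adjusted p = 0.0409, loss of MDR2), and Ehf and Sox4 passed with zero residuals left out. No paired analysis was possible because each genotype has 1 array, and no array could be left out of the additive fit without exhausting its residual. Intensities of Ehf, Sox4 and Hey1 near the low end limit how exact their folds are.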
